A study of Homo sapiens with 6 samples.

Results

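The germline and meiosis genes examined here are 40 genes that act in germ cells, from the synaptonemal complex and meiotic cohesin to the piRNA pathway. They were listed by symbol, and every probe set annotated to 1 of these genes alone was taken, whatever its brightness. This gave 55 of the 54675 probe sets on the array, for 37 of the 40 genes. Of these genes, 22 had 1 probe set, 12 had 2 and 3 had 3. MSH5 and MEIOB were read only by probe sets shared with other genes, and TDRD7 was not analysed here. The samples were cells of HEK293, an established line of human embryonic kidney origin, transfected for 72 h with a BAHD1 siRNA (3 biological replicates) or a control siRNA (3 biological replicates). All 6 samples received an siRNA and the same lipid reagent, and 1 array was hybridised per sample. The cells are 1 line, so p-values speak of the spread between cultures of that line.

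BAHD1 is a chromatin protein that helps to form heterochromatin and to silence genes. Germline genes are a well known target of silencing in somatic cells. Many of them have CpG-rich promoters that are methylated outside the germ line, and in mouse cells a variant Polycomb complex that contains E2F6, MGA, MAX, L3MBTL2 and PCGF6 keeps them off. In meiosis itself, cohesin and axis proteins form the chromosome core, SPO11 cuts the DNA, DMC1 carries out strand exchange, and the synaptonemal complex joins the homologues. PIWI proteins with their small RNAs, the piRNAs, silence transposons in the same cells. The comparison asks whether lowering BAHD1 changes transcripts of this programme in a somatic line.

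The germline programme was largely dim in both groups, and no member passed the test for a difference. A probe set was kept for testing when its signal exceeded 17.9, the median of all non-control values, in at least 3 of the 6 arrays. Of the 55 member probe sets, 15 were kept, from 10 genes, and 40 were dim. By the same rule 27155 of all 54613 non-control probe sets were dim, and 12529 of 19775 genes with a probe set of their own were kept. Transcripts of MND1, DMC1, PSMC3IP, TDRKH, NANOS1, SYCE2, TEX15, SYCP2, HSF2BP and REC8 were read above this level, whereas 27 genes had dim probe sets only. In limma with one variance prior, 0 of the 15 kept probe sets were called after Benjamini-Hochberg adjustment over all 27458 kept probe sets, and 0% of those were called. At an unadjusted p under 0.05 this fit held 0 of the 15 and 17.6% of all kept probe sets. In limma with a prior variance that follows the signal, called the intensity-trend fit below, 0 of the 15 were called, against 4.45% of all kept probe sets. At an unadjusted p under 0.05 that fit held 3 of the 15, or 20%, against 20.9% of all. Below, signals are on the deposited linear scale, and log2 values are log2(signal + 1).

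**Figure D1:**
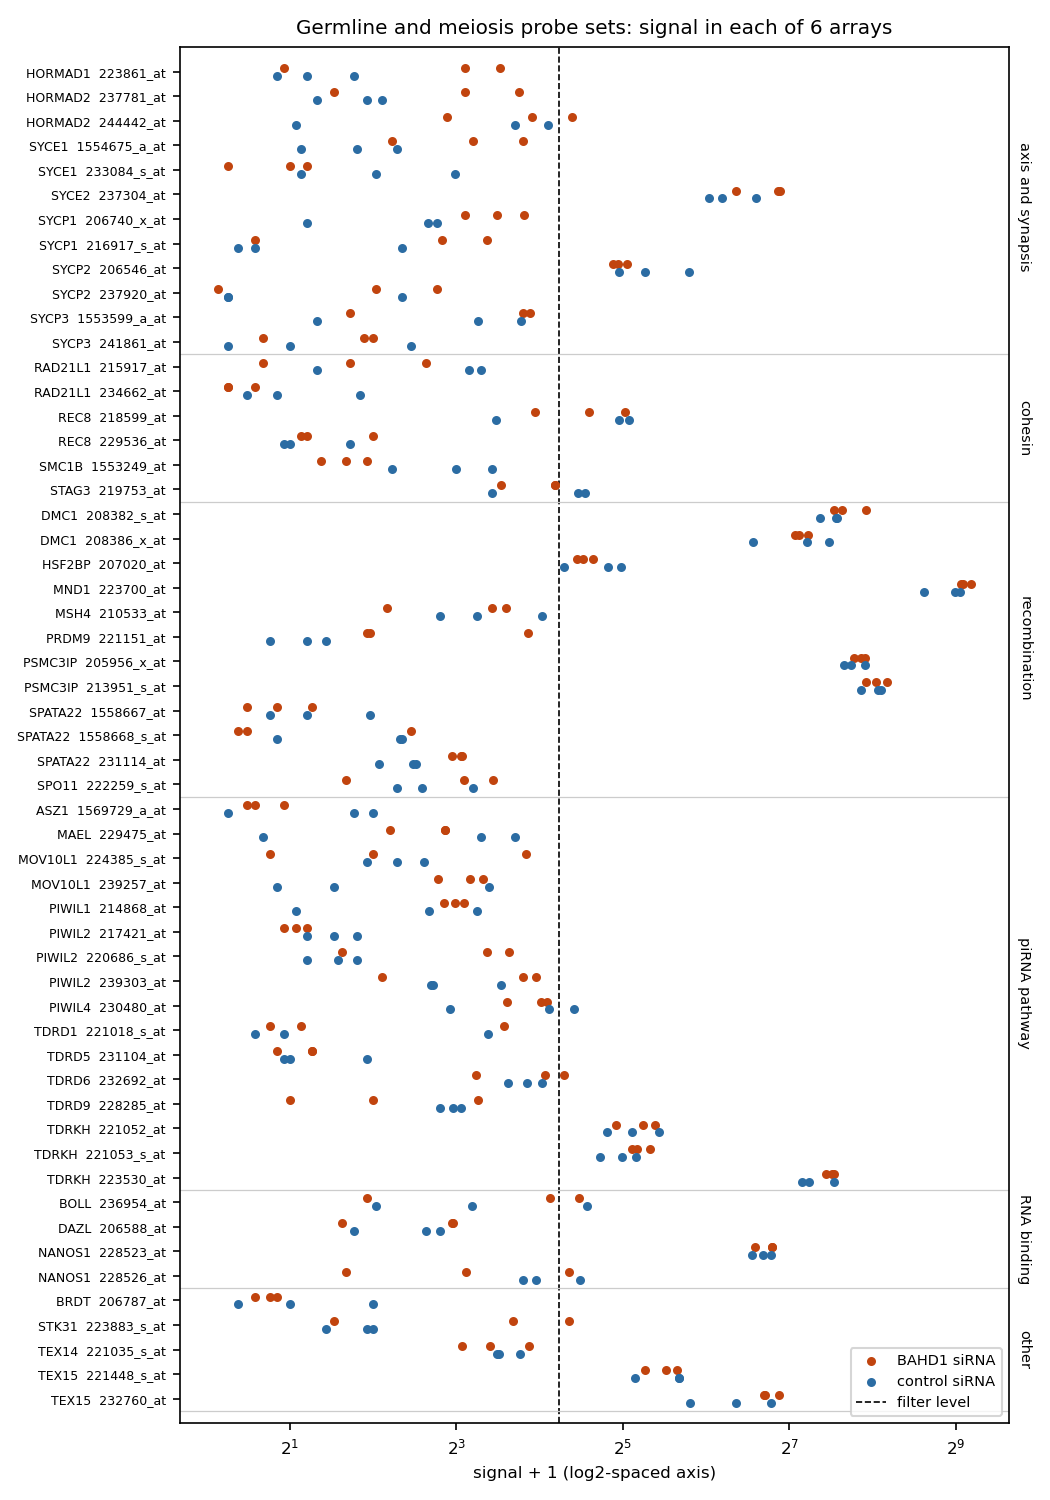
Signal plus 1 of each of the 55 member probe sets (rows, by role) in the 3 BAHD1 siRNA arrays (orange, upper points of a row) and the 3 control siRNA arrays (blue, lower points), on a log2-spaced axis. The dashed line is the filter level of 17.9, and 40 of the 55 probe sets were above it in fewer than 3 arrays.

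The BAHD1 transcript was measured by 1 probe set, with signals of 36.6, 46.8 and 41.2 in BAHD1 siRNA arrays, against 62.9, 55.7 and 46.7 in control arrays. The log2 difference was -0.40 (SE 0.15; adjusted p = 0.251 in limma with one prior and 0.25 with the intensity trend). The depletion itself thus did not pass the test adjusted over all kept probe sets at the RNA level. Unadjusted, p was 0.035 in limma with one prior, and the interval of -0.75 to -0.038 excluded 0. In the intensity-trend fit the unadjusted p was 0.055, and the interval of -0.80 to 0.010 included 0. The highest BAHD1 siRNA value lay just above the lowest control value. Median signals per array ran from 17.5 to 19.5 in BAHD1 siRNA arrays and from 15.9 to 17.9 in control arrays. Spiked-in poly-A RNAs are read by 24 probe sets, and each was brighter in the BAHD1 siRNA group (median log2 fold change 0.58). Their part in the values below was not tested. Of 6 genes known to be expressed in HEK293 cells, NEFL, NEFM, INA, PAX2 and EYA1 were read by kept probe sets and LHX1 was dim. Their summed signal was 1932.6 to 2110.6 in BAHD1 siRNA arrays and 1470.7 to 1714.6 in control arrays, without overlap. NEFL made up most of that sum, so it does not describe the 6 genes alike. The brightest NEFL probe set alone read 743.2, 841.1 and 765.2 in BAHD1 siRNA arrays, against 540, 578.2 and 708.1 in control arrays. Groups did not overlap in 25.6% of all kept probe sets. In the intensity-trend fit the brightest probe sets of the neurofilament genes NEFL and NEFM were called higher (log2 fold changes 0.37 and 0.58, adjusted p = 0.0457 and 0.0473, and 0.23 and 0.196 in limma with one prior). Each was called in 1 of 6 fits with one array left out. Neither probe set was called in the intensity-trend fit with array medians centred (adjusted p = 0.238 and 0.0812) or with no filter (adjusted p = 0.0993 and 0.103). NEFM was not called after quantile normalisation either (adjusted p = 0.0585). A dimmer NEFL probe set was called in the intensity-trend fit (0.75, adjusted p = 0.0498), and still with array medians centred (adjusted p = 0.0433). Its call was lost with no filter (adjusted p = 0.105) and after quantile normalisation (adjusted p = 0.0595). A further NEFL probe set was not called (0.19, adjusted p = 0.239). PAX2, INA and EYA1 did not pass, at 0.65, 0.31 and -0.05. The part of these differences in the values below was not tested. The germ cell markers DDX4, DAZL and NANOS3 were dim in all arrays, at 1.5 to 9.1 in BAHD1 siRNA arrays and 0.6 to 8.2 in control arrays. The pluripotency markers NANOG and LIN28A were dim as well, at 0.6 to 6.3 in BAHD1 siRNA arrays and 0.5 to 17.6 in control arrays. Of 22 probe sets for 7 genes of blood, endothelium and fibroblasts, 1 was kept, and they ran from 0.3 to 22.5 in BAHD1 siRNA arrays and from 0.2 to 19.7 in control arrays. The dim member probe sets had a similar range, at 0.1 to 21.3 in BAHD1 siRNA arrays and 0.2 to 22.8 in control arrays.

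Promoters are shown for SYCE2 and SYCP2, kept members of the synaptonemal complex, and for SMC1B, a dim member of the cohesin ring, and were picked from the members whose promoters hold the hexamer described next. The 250 bases before the annotated start were read from RefSeq (GRCh38.p14), and 31 of the 37 members on the array had such a window. The hexamer TCCCGC, known as the core of the E2F6 binding site, was searched on both strands (its reverse complement is GCGGGA), and its matches are in capitals. All 3 genes lie on the minus strand, and the letters run 5′ to 3′ on that strand. The windows are chr19:12919294-12919543 for SYCE2, chr20:59933638-59933887 for SYCP2 and chr22:45413600-45413849 for SMC1B.
SYCE2: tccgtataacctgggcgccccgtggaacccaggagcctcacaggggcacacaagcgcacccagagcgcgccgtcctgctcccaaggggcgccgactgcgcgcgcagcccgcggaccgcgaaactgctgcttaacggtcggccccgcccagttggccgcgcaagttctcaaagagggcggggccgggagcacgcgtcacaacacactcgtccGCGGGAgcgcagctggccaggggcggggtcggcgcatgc
SYCP2: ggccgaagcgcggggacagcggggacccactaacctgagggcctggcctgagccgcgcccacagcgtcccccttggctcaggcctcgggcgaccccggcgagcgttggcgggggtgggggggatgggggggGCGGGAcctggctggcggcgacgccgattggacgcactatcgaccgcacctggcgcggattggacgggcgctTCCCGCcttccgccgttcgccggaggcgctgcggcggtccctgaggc
SMC1B: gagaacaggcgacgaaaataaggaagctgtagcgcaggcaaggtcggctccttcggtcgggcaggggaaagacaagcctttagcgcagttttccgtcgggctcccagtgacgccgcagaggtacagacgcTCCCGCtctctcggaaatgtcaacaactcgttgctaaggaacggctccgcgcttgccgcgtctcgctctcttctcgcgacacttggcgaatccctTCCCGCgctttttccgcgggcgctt

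SMC1B and SYCP2 each held 2 matches and SYCE2 held 1. Over the members, 16 of 31 windows (51.6%) held the hexamer, against 23.5% of all 35116 RefSeq promoter windows of the same length. Members count 1 window per gene, whereas the full set was not limited to 1 window per gene or to genes on the array. It was found in 5 of 8 windows of kept members and in 11 of 23 windows of dim members. The windows were also CpG-rich, with a median of 22 CpG dinucleotides (range 6 to 51) against 11 in all windows. Among windows with at least 20 CpG, which hold the hexamer more often in general, it was present in 12 of 18 member windows (66.7%) and in 47.6% of all such windows. The E-box CACGTG, the palindrome to which MGA and MAX bind, was found in 3 of 31 member windows (9.7%), those of BRDT, STK31 and TDRD1, against 6.3% of all windows. Among windows with at least 20 CpG it was found in 0 of 18 member windows and in 9.3% of all such windows. A match describes letters and is no binding site, and for 9 of the 31 genes the window starts from a transcript whose start differs from that of the RefSeq gene record.

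**Figure D2:**
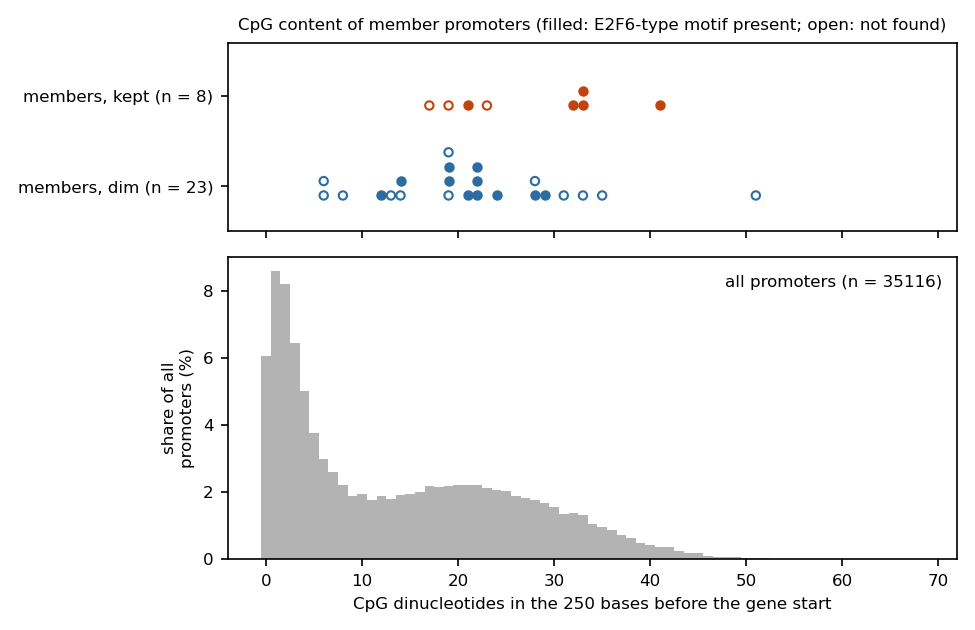
Number of CpG dinucleotides in the 250 bases before the gene start for 8 kept and 23 dim members (upper panel, 1 point per gene, filled where the E2F6-type hexamer is present) and for all 35116 RefSeq promoters (lower panel, share in percent). The members have a median of 22 CpG against 11 for all promoters, and both kept and dim members include filled and open points.

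Among the genes of the chromosome axis and the synaptonemal complex, the 2 kept probe sets lay on opposite sides of 0. SYCE2 encodes a protein of the central element of the synaptonemal complex. Its signals were 81.0, 117.4 and 115.8 in BAHD1 siRNA arrays, against 72.0, 96.3 and 64.4 in control arrays. BAHD1 siRNA replicates 2 and 3 exceeded every control array, and replicate 1 lay within the control range. Its log2 signal was 6.70 ± 0.30 in BAHD1 siRNA cells and 6.28 ± 0.30 in control cells (SD, n = 3 each), a log2 fold change of 0.43 (95% interval -0.08 to 0.94; adjusted p = 0.344 in limma with one prior and 0.198 with the intensity trend). SYCP2 encodes a protein of the lateral element. Its kept probe set read 28.6, 32.2 and 29.8 in BAHD1 siRNA arrays, against 37.4, 30.1 and 54.4 in control arrays. The BAHD1 siRNA values were closely spaced and overlapped the lowest control value, and the log2 fold change was -0.38 (95% interval -0.89 to 0.14; limma, adjusted p = 0.403). The other SYCP2 probe set was dim, at 0.1 to 5.8 in BAHD1 siRNA arrays and 0.2 to 4.1 in control arrays.

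The remaining axis genes were dim. SYCP1, whose protein bridges the homologues as the transverse filament, read 13.1, 10.2 and 7.6 in BAHD1 siRNA arrays, against 5.3, 5.8 and 1.3 in control arrays, in 1 of its 2 probe sets. These groups did not overlap, yet all 6 values lay under the filter level, and in the other SYCP1 probe set, with 0.5 to 9.3 in BAHD1 siRNA arrays and 0.3 to 4.1 in control arrays, they did overlap. HORMAD1 and HORMAD2, axis proteins that monitor synapsis, reached 10.5 and 19.9 in BAHD1 siRNA arrays and 2.4 and 16.2 in control arrays at most. SYCP3, the other main lateral element protein, stayed between 0.6 and 13.8 in BAHD1 siRNA arrays and between 0.2 and 12.7 in control arrays. SYCE1, a central element protein, gave opposite signs in its 2 dim probe sets. Of the 10 dim probe sets of this class, from 6 genes, 9 were higher in BAHD1 siRNA arrays, beside 57.3% of all dim probe sets. Their median log2 fold change was 0.89, beside 0.12 over all dim probe sets, on signals of at most 19.9 in BAHD1 siRNA and 16.2 in control arrays. The dim cohesin probe sets lay the other way, with 1 of 5 higher and a median of -0.69, and of the 6 dim recombination probe sets 3 were higher, with a median of -0.13. The design held axis and cohesin genes as 1 class, and they are split here. These differences between classes were not tested and were not run under other normalisations. Over all dim members, 24 higher and 16 lower became 19 and 21 after quantile normalisation.

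Meiotic cohesin subunits read near or below the filter level, and REC8 alone was kept. REC8, the meiotic kleisin that replaces RAD21, read 31.6, 14.4 and 23.1 in BAHD1 siRNA arrays, against 32.6, 30.1 and 10.1 in control arrays. Both groups held a value under 17.9, the ranges overlapped almost completely, and the interval of the log2 fold change of 0.02 was the widest of the kept probe sets, from -1.18 to 1.22. STAG3, the meiotic counterpart of STAG1 and STAG2, read 17.2, 17.2 and 10.6 in BAHD1 siRNA arrays, against 21.0, 9.8 and 22.3 in control arrays, and was counted as dim. SMC1B, the meiotic form of SMC1A whose promoter is printed above, read 1.6, 2.2 and 2.8 in BAHD1 siRNA arrays, against 3.7, 7.0 and 9.8 in control arrays. It was the only dim member probe set whose BAHD1 siRNA values all lay below its control values, and every value was under 10. RAD21L1, a further meiotic kleisin, read at most 5.2 in BAHD1 siRNA arrays and 8.8 in control arrays.

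Recombination genes held the brightest signals of the list. MND1 and PSMC3IP encode the 2 partners of a complex that helps DMC1 in strand exchange. MND1 read 535.3, 543.4 and 581.8 in BAHD1 siRNA arrays, against 392.8, 531.7 and 509.0 in control arrays. It was the only 1 of the 15 kept probe sets (6.67%) whose groups did not overlap, against 25.6% of all kept probe sets, and the gap between 535.3 and 531.7 was small. Its log2 signal was 9.11 ± 0.06 in BAHD1 siRNA cells and 8.89 ± 0.24 in control cells (SD, n = 3 each), and its log2 fold change was 0.22 (95% interval -0.11 to 0.55; adjusted p = 0.433 in limma with one prior and 0.236 with the intensity trend). Without control replicate 1 the log2 fold change of MND1 was 0.09. PSMC3IP was read by 2 probe sets, at 217.7 to 288.9 in BAHD1 siRNA arrays and 201.8 to 273.4 in control arrays, with log2 fold changes of 0.07 and 0.04. Their 95% intervals were -0.17 to 0.31 and -0.23 to 0.31, among the narrowest in the list.

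DMC1, the meiotic recombinase, was read by 2 bright probe sets whose names carry the suffixes that Affymetrix gives to sets that can match more than 1 transcript. The first read 185.3, 198.3 and 242.0 in BAHD1 siRNA arrays, against 188.5, 164.7 and 189.6 in control arrays. The second read 133.0, 137.4 and 149.2 in BAHD1 siRNA arrays, against 93.6, 177.1 and 147.6 in control arrays. Groups overlapped in both, and the log2 fold changes were 0.20 and 0.05 (limma, adjusted p = 0.467 and 0.924). HSF2BP, a protein that binds BRCA2 in meiosis, read 21.9, 20.8 and 23.9 in BAHD1 siRNA arrays, against 18.6, 27.2 and 30.5 in control arrays, with a log2 fold change of -0.16 (95% interval -0.62 to 0.29).

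The nuclease SPO11, the mismatch-repair relative MSH4, the hotspot-marking histone methyltransferase PRDM9 and SPATA22, a partner of MEIOB on single-stranded DNA, were all dim. PRDM9 read 2.9, 13.6 and 2.8 in BAHD1 siRNA arrays, against 1.7, 0.7 and 1.3 in control arrays. The log2 difference of 1.45 was the largest of all member probe sets and rested on signals under the filter level in every array. SPATA22 read 6.7, 7.3 and 7.4 in BAHD1 siRNA arrays, against 3.2, 4.7 and 4.6 in control arrays, in 1 of 3 probe sets, while the groups of the other 2 overlapped and were lower on average in BAHD1 siRNA arrays. SPO11 ran from 2.2 to 9.9 in BAHD1 siRNA arrays and from 3.9 to 8.2 in control arrays, and MSH4 from 3.5 to 11.1 in BAHD1 siRNA arrays and from 6.0 to 15.4 in control arrays.

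In the piRNA pathway 1 gene of 11 was kept. TDRKH, a Tudor protein that tethers PIWI proteins to mitochondria and is expressed outside the germ line as well, had 3 kept probe sets. The brightest read 181.6, 185.5 and 173.1 in BAHD1 siRNA arrays, against 150.1, 141.0 and 184.7 in control arrays. The second read 35.1, 39.1 and 33.5 in BAHD1 siRNA arrays, against 30.8, 25.4 and 34.6 in control arrays. In both, control replicate 3 reached the BAHD1 siRNA range and the other control arrays lay below it. The log2 fold changes were 0.19 and 0.25 (limma, adjusted p = 0.454 and 0.39), and the third probe set gave 0.06.

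The PIWI genes themselves were dim. PIWIL1 read 6.2 to 7.5 in BAHD1 siRNA arrays and 1.1 to 8.5 in control arrays, and the 3 probe sets of PIWIL2 read 0.9 to 14.6 in BAHD1 siRNA arrays and 1.3 to 10.6 in control arrays. PIWIL4, a nuclear PIWI protein that guides DNA methylation of transposons in mouse, exceeded the filter level in 1 array, at 15.2, 16.1 and 11.2 in BAHD1 siRNA arrays and 6.6, 20.4 and 16.3 in control arrays. Among the Tudor genes TDRD1, TDRD5 and TDRD9 stayed at or under 10.9 in all arrays, and TDRD6 read 8.4 to 18.6 in BAHD1 siRNA arrays and 11.3 to 15.3 in control arrays. The RNA helicase gene MOV10L1, which is needed for piRNA production, read 0.7 to 13.3 in BAHD1 siRNA arrays and 0.8 to 9.5 in control arrays. MAEL reached 6.3 in BAHD1 siRNA arrays and 12.1 in control arrays, and ASZ1 reached 0.9 in BAHD1 siRNA arrays and 3.0 in control arrays. Groups overlapped in all 13 dim probe sets of this class, where 10.8% of all dim probe sets were without overlap, and this difference was not tested.

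Of the germ cell RNA-binding genes, NANOS1, a translational repressor with roles outside the germ line, was kept in 1 of 2 probe sets. It read 109.7, 109.7 and 94.9 in BAHD1 siRNA arrays, against 92.6, 101.7 and 108.7 in control arrays. The ranges were nearly the same, and the log2 fold change was 0.05 (95% interval -0.21 to 0.31). The other NANOS1 probe set was dim, at 7.7, 19.4 and 2.2 in BAHD1 siRNA arrays and 14.6, 13.0 and 21.5 in control arrays. DAZL, which controls translation in early germ cells, read 2.1 to 6.8 in BAHD1 siRNA arrays and 2.4 to 6.0 in control arrays. BOLL, its meiotic relative, varied widely within both groups, from 2.8 to 21.3 in BAHD1 siRNA arrays and from 3.1 to 22.8 in control arrays.

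TEX15, a protein needed in mouse germ cells for meiotic repair and transposon silencing, was read by 2 kept probe sets. The difference between their fold changes was not tested, and their intervals overlapped. The first read 103.8, 116.7 and 103.0 in BAHD1 siRNA arrays, against 55.1, 108.7 and 81.0 in control arrays. BAHD1 siRNA values were close together, and control replicate 2 lay among them. The log2 signal was 6.76 ± 0.10 in BAHD1 siRNA cells and 6.32 ± 0.49 in control cells (SD, n = 3 each), a log2 fold change of 0.45 (95% interval -0.14 to 1.04; adjusted p = 0.384 in limma with one prior and 0.216 with the intensity trend). Without control replicate 1 it was 0.20. The second probe set read 49.1, 44.9 and 37.5 in BAHD1 siRNA arrays, against 50.1, 34.5 and 50 in control arrays. Its log2 fold change was -0.02 (95% interval -0.47 to 0.42). BRDT, the testis member of the BET bromodomain family, stayed at or under 0.8 in BAHD1 siRNA arrays and 3.0 in control arrays. TEX14, a component of germ cell bridges, read 7.4 to 13.7 in BAHD1 siRNA arrays and 10.2 to 12.6 in control arrays. STK31, a kinase-like Tudor protein, read 1.9, 19.5 and 11.8 in BAHD1 siRNA arrays, against 1.7, 2.8 and 3.0 in control arrays, so that 2 of the 3 BAHD1 siRNA arrays were higher than every control array.

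**Figure D3:**
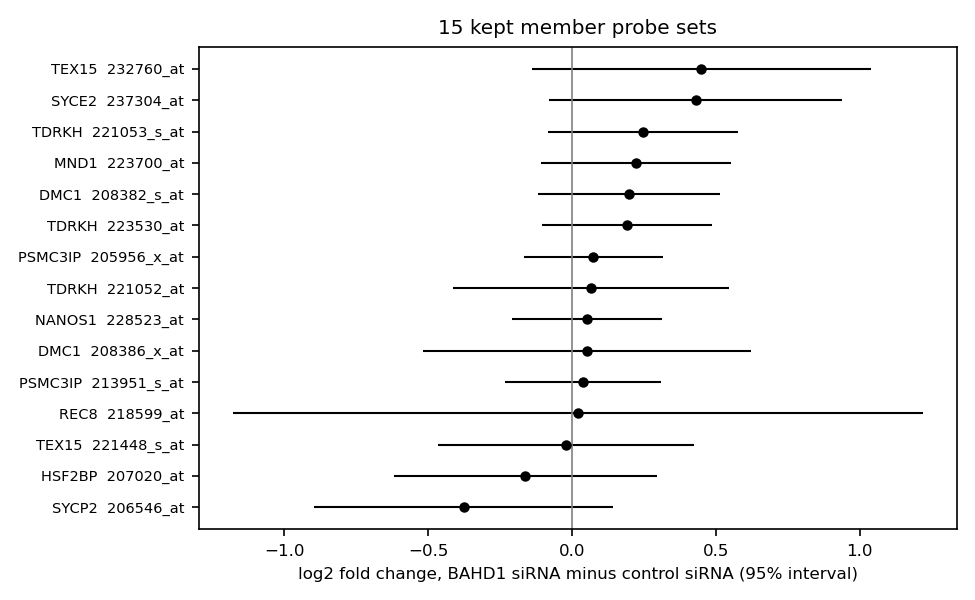
Log2 fold change, BAHD1 siRNA minus control siRNA, of the 15 kept member probe sets with 95% intervals from limma with one variance prior (points and bars, 3 arrays per group). Every interval includes 0, and 13 of the 15 lie within 1 log2 unit of 0 on both sides.

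Over the 15 kept member probe sets, 12 were higher and 3 lower in BAHD1 siRNA cells. Their median log2 fold change of 0.06 stood beside 0.01 over all kept probe sets, of which 52% were higher. With array medians centred, 6 were higher and 9 lower, while 31.9% of all kept probe sets were higher. With one variance prior all 15 intervals included 0, and 13 lay within 1 log2 unit of 0, those of REC8 and the first TEX15 probe set reaching beyond. In the intensity-trend fit 12 of the 15 unadjusted intervals included 0 and all 15 lay within 1 log2 unit of 0. Those that did not include 0 were 0.038 to 0.82 for SYCE2, 0.021 to 0.88 for the first TEX15 probe set and 0.0013 to 0.44 for MND1.

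Over the 40 dim probe sets, 24 were higher and 16 lower (19 and 21 after quantile normalisation and also with array medians centred), and the median log2 fold change was 0.10, beside 0.12 over all 27155 dim probe sets, of which 57.3% were higher. Groups did not overlap in 4 of the 40 (10%; SYCP1, PRDM9 and SPATA22 higher, SMC1B lower), against 10.8% of all dim probe sets. These 4 were named after their values had been seen. Dim probe sets entered a test only when no filter was applied, and then 0 of the 55 member probe sets were called in the intensity-trend fit, against 0.729% of all non-control probe sets. Of the 40, 33 were under the filter level in all 6 arrays, 4 exceeded it in 1 array and 3 in 2 arrays.

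**Figure D4:**
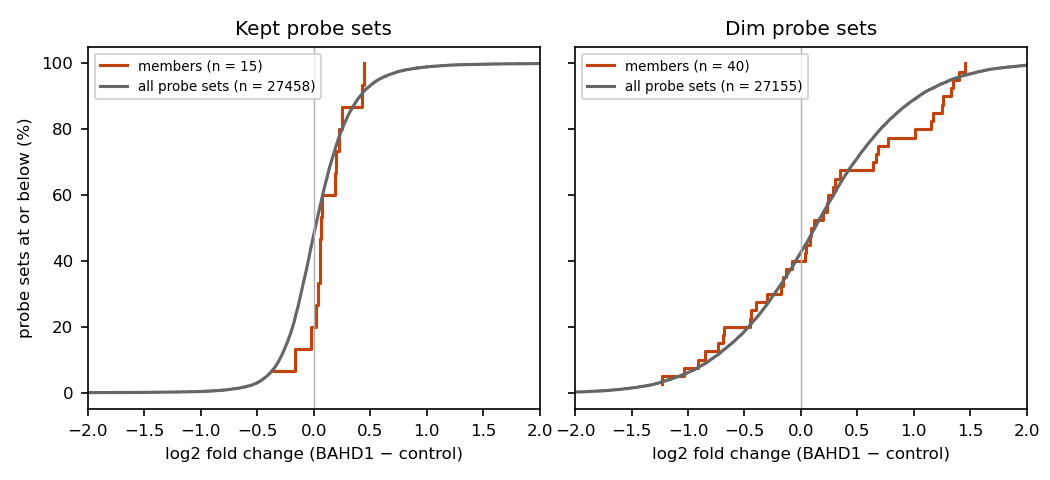
Cumulative share of probe sets (percent) by log2 fold change, BAHD1 siRNA minus control siRNA, for members (orange) and all probe sets (grey), in the kept (left) and dim (right) classes, shown between -2 and 2. Member medians are 0.06 (kept, n = 15) and 0.10 (dim, n = 40), beside 0.01 and 0.12 for all probe sets.

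Further germline genes were also mostly dim, and none was called. In the lists below each gene is represented by its brightest kept probe set, and 5.52% of all 12529 genes so represented were called in the intensity-trend fit. Of 40 further germline and meiosis genes, 34 had a probe set of their own, 11 were kept, 8 of these were higher and 3 lower, and 0 were called. Their median log2 fold change was 0.33, beside 0.02 over all genes. This difference in medians was not tested and was not run under other normalisations. The smallest p-values of this list belonged to CNTD1, a crossover factor, and MEIOC, which sustains meiotic prophase. CNTD1 read 30.7, 35.1 and 33.8 in BAHD1 siRNA arrays, against 17.6, 24.4 and 24.1 in control arrays, without overlap, and its log2 fold change was 0.58 (adjusted p = 0.171 in limma with one prior and 0.215 with the intensity trend). MEIOC read 189.6, 194.2 and 220.3 in BAHD1 siRNA arrays, against 158.1, 157.9 and 154.4 in control arrays, also without overlap, with a log2 fold change of 0.36 (adjusted p = 0.172 in limma with one prior and 0.0617 with the intensity trend). Its 4 other probe sets were dim, with log2 differences of 0.90, 0.06, -0.19 and -0.23.

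Of 30 genes of spermatids and sperm, 29 had a probe set of their own, 11 were kept and 1 was called in the intensity-trend fit. SPAG16, an axoneme protein of sperm tails and other cilia, rose by 0.36 in that fit, with 330.1, 327.3 and 355.4 in BAHD1 siRNA arrays, against 264.9, 246.4 and 278.2 in control arrays (adjusted p = 0.0352; 0.169 in limma with one prior). Spermatid markers PRM1, PRM2, TNP1 and ACR were dim, at 0.4 to 15.1 in BAHD1 siRNA arrays and 0.4 to 16 in control arrays. Of 30 cancer-testis antigens, 24 had a probe set of their own, 8 were kept and 0 called, with a median log2 fold change of -0.02. Among them the antigen gene PRAME read 558.5, 516.4 and 519.0 in BAHD1 siRNA arrays, against 631.8, 525.7 and 538.6 in control arrays, and the brightest of 4 kept probe sets of the chromatin ATPase gene ATAD2 had a log2 fold change of 0.12, while the others gave 0.02, -0.16 and -0.25. None of these passed the test.

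Of 25 genes listed here as silencers of the germline programme, 24 had a probe set of their own. All 24 were kept, with a median log2 fold change of 0.07. In the intensity-trend fit 2 were called, both higher. ZBTB2, a zinc finger repressor, read 200.9, 207.2 and 231.2 in BAHD1 siRNA arrays, against 160.1, 155.8 and 167.0 in control arrays, and rose by 0.40 (adjusted p = 0.0395; 0.16 in limma with one prior). DNMT1, the maintenance DNA methyltransferase, read 1079.5, 1095.7 and 1047.0 in BAHD1 siRNA arrays, against 850.7, 730.9 and 954.2 in control arrays, and rose by 0.35 (adjusted p = 0.0395; 0.219 in limma with one prior). E2F6 and MGA did not pass, at log2 fold changes of 0.24 and -0.30. Of 31 mitotic counterparts and relatives of the members, 25 had a probe set of their own, 23 were kept and 2 were called, both lower in the intensity-trend fit. SND1, a Tudor-domain nuclease, fell by 0.46 (adjusted p = 0.0202; 0.171 in limma with one prior) and BRD2, a somatic relative of BRDT, fell by 0.28 (adjusted p = 0.0429; 0.214 in limma with one prior). Of the cohesin genes, the brightest probe sets of RAD21, SMC1A, SMC3 and STAG2 had log2 fold changes of 0.16, -0.03, 0.12 and 0.14, none past the threshold. Of the relatives' probe sets that did not represent their gene, the intensity-trend fit called those of STAG2 (0.48, adjusted p = 0.0127), MOV10 (-0.38, adjusted p = 0.0271) and BRD2 (-0.27, adjusted p = 0.0496). They were named after their values had been seen.

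These calls changed with the arrays in the fit. With each of the 6 arrays left out in turn, the intensity-trend fit called SND1 in 2 of 6 fits and SPAG16, ZBTB2, DNMT1 and BRD2 in 1 of 6 each. None of these 5 genes was called without BAHD1 siRNA replicate 2 or 3 or without control siRNA replicate 1 or 2, where adjusted p ran from 0.0623 to 0.178. With array medians centred, SPAG16, ZBTB2 and DNMT1 were no longer called (adjusted p = 0.279, 0.226 and 0.267) and SND1 and BRD2 still were. The call of BRD2 was also lost after quantile normalisation (adjusted p = 0.0512). With no filter on dim probe sets SND1 alone of the 5 was called (adjusted p = 0.0484), and the others had adjusted p-values of 0.0826 (SPAG16), 0.0846 (DNMT1), 0.0921 (ZBTB2) and 0.0932 (BRD2). Of the relatives' probe sets that did not represent their gene, that of STAG2 was called in 3 of 6 fits with one array left out and those of MOV10 and BRD2 in 0 of 6. That of STAG2 was not called with array medians centred (adjusted p = 0.0622), and those of MOV10 and BRD2 were not called with no filter (adjusted p = 0.0657 and 0.108), nor that of BRD2 after quantile normalisation (adjusted p = 0.0671).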

How the data were processed

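Expression was measured on 6 arrays, 3 of BAHD1 siRNA and 3 of control siRNA HEK293 cells, grouped and numbered by their titles. The deposited intensity values are one linear signal per probe set and array. GCOS and GCRMA are the tools named, with no version, per the submitters' processing notes. The mean of each array without its highest and lowest 2% was 100, so arrays appear to share one scaling, and the program that wrote the table was not stated. The design assumed log2 values if deposited so, and log2(value + 1) otherwise, which was used. The 62 control probe sets were left out. Probe sets above 17.9 (the 50th percentile of all non-control values) in at least 3 of 6 arrays were kept, 27458 in all. This filter can keep a probe set through 1 group.

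BAHD1 siRNA minus control siRNA was fitted with limma 3.58.1 under R 4.3.3, using lmFit and eBayes with one variance prior and, beside it, with trend and robust, at a Benjamini-Hochberg threshold of 0.05 over all kept probe sets. The scripts were tested on simulated data. Probe sets were named from GEO's platform annotation (41097 with 1 gene, 1801 with several, 11777 with none), and 0 symbols needed an update against RefSeq GRCh38.p14. Members and lists were chosen with earlier results of these data known. Every member is named, all 6 signals being given for kept probe sets with an unadjusted p under 0.05 in either fit, and for those with the smallest p until 6 genes were covered. Further probe sets with all 6 signals were chosen after seeing values. From each list the called genes are named, or the 2 with the smallest p. At most 1.08% of probe sets had equal values on any pair of arrays. Same-numbered arrays did not deviate together (r = 0.0101, 0.0102 and 0.0239), so numbers were not taken as pairs. Alternatives were a replicate block, other filters, quantile normalisation, centred medians, array weights, log2(value + 16) and leaving out each array.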

Additional observations from a re-analysis of the deposited data

How the results depend on the processing

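No member probe set was called in either fit under any alternative run. The smallest adjusted p of a member was 0.0768, in the intensity-trend fit without BAHD1 siRNA replicate 1. With the replicate block 0 members were called as well, at smallest adjusted p-values of 0.316 (one prior) and 0.131 (intensity trend), and 1629 of all kept probe sets were called with the trend, against 1221 without the block. That total was 186 and 177 without BAHD1 siRNA replicates 2 and 3, 295 and 279 without control siRNA replicates 1 and 2, and 398 with no filter. The one-prior fit called 1147 of all probe sets with the stricter filter. Of the 15 kept member probe sets 8 kept their sign in all settings and 7 did not. The number of members without overlap, 1, was 5 of 55 with no filter (9.09%, against 18.2% of all) and 2 to 5 of 15 with one array left out (13.3% to 33.3%, against 32.9% to 39.4% of all), where fewer arrays make separation easier. With the stricter filter the 8 kept members were all higher, against 45.6% of all probe sets. The median log2 fold change of the kept members was 0.13 with the stricter filter, which kept 8 of the 15, and -0.073 with array medians centred, which moved all kept probe sets by -0.14, so that the members' median lay 0.05 above that of all, with and without centring. It was 0.086 to 0.12 with one array left out. For dim members, alternatives chosen after seeing the data gave -0.032 after quantile normalisation and -0.037 with centred medians, and -0.028 to 0.25 with one array left out. With centred medians the sign turned for DMC1 (dimmer probe set, -0.086), NANOS1 (-0.085), PSMC3IP (-0.064 and -0.098), REC8 (-0.12) and TDRKH (probe set at 0.06, -0.073). It turned for REC8 (-0.12) and this TDRKH probe set (-0.0061) after quantile normalisation, and for REC8 (-0.016) with log2(value + 16). With one array left out, ranges that crossed 0 were -0.21 to 0.25 for this DMC1 probe set, -0.0084 to 0.12 for NANOS1, -0.033 to 0.10 for PSMC3IP, -0.49 to 0.31 for REC8, -0.091 to 0.22 for TDRKH and -0.20 to 0.084 for the dimmer TEX15 probe set. The list genes' alternatives were also chosen after seeing the data. Signals under the filter level limit what can be said of 27 genes.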
